A study of Homo sapiens with 6 samples.

Results

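The simple epithelial keratins are the filament proteins of single-layered epithelia such as the lining of the gut. The 7 genes described here are KRT7, KRT8, KRT18, KRT19, KRT20, KRT23 and KRT80. They were read through every probe set whose platform annotation names 1 of these genes and no other, which gave 11 probe sets of 54613 on the array and 7 of 19775 genes. RNA came from DLD-1, a human colorectal carcinoma line, in the form of 2 of its subclones. DLD-1Δα-Cat gave 3 samples and DLD-1α-Cat gave 3, each on 1 Affymetrix array. Both had been kept untreated for 96 h in type I collagen gels of 1 mg/ml. The labels leave the name Δα-Cat without an explanation, give no way by which either subclone was made, and do not say whether replicates were separate cultures. The p-values therefore rest on a spread between samples that may be technical. The title of each group names α-catenin, whose gene CTNNA1 averaged 11.23 ± 0.193 on the DLD-1Δα-Cat arrays and 12.75 ± 0.0324 on the DLD-1α-Cat arrays (SD, n = 3 each, log2 scale), a difference of -1.52 (limma adjusted p = 0.000838).

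Keratins are grouped into acidic type I and basic or neutral type II proteins, and a filament is built from pairs of 1 chain of each type. In intestinal epithelium the type II keratin 8 pairs with the type I keratins 18, 19 and 20. Keratins 8, 18 and 19 are present along the whole crypt, whereas keratin 20 is a marker of differentiated cells near the surface, and it is used in pathology with keratin 7 to tell colorectal tumours from others. All values below are log2 intensities of the authors' RMA summary, in which a difference of 1 is a 2-fold change, and every difference is DLD-1Δα-Cat minus DLD-1α-Cat with the standard error (SE) of a limma fit over all genes. The members were chosen by their family and by earlier values of this same comparison, above all that of KRT20, so their differences are a description and carry no p-value.

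A single simple keratin differed widely between the subclones. KRT20 was at 12.90, 13.01 and 13.15 on the DLD-1Δα-Cat arrays, against 7.88, 8.45 and 8.08 on the DLD-1α-Cat arrays. Every DLD-1Δα-Cat array lay more than 4 log2 units above every DLD-1α-Cat array. The means were 13.02 ± 0.126 on the DLD-1Δα-Cat arrays and 8.13 ± 0.288 on the DLD-1α-Cat arrays (SD, n = 3 each), which differ by 4.89 (SE 0.159) or 29.6-fold on the RMA scale. The gene is read by 1 probe set, so no second one bears on it. The DLD-1α-Cat values lay above the median of all probe sets, 6.12, and so not at the bottom of the array's range. Over 14 alternative ways of processing the arrays the difference ranged from 4.76 to 5.04. Of the 7 genes, KRT20 alone passed an adjusted p of 0.05 in the fit over all genes, in which 5.52% of genes passed, and it alone had arrays that did not overlap between the subclones, as did 27.2% of all genes. Nothing is read from these counts, since the comparison chose the members.

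**Figure D1:**
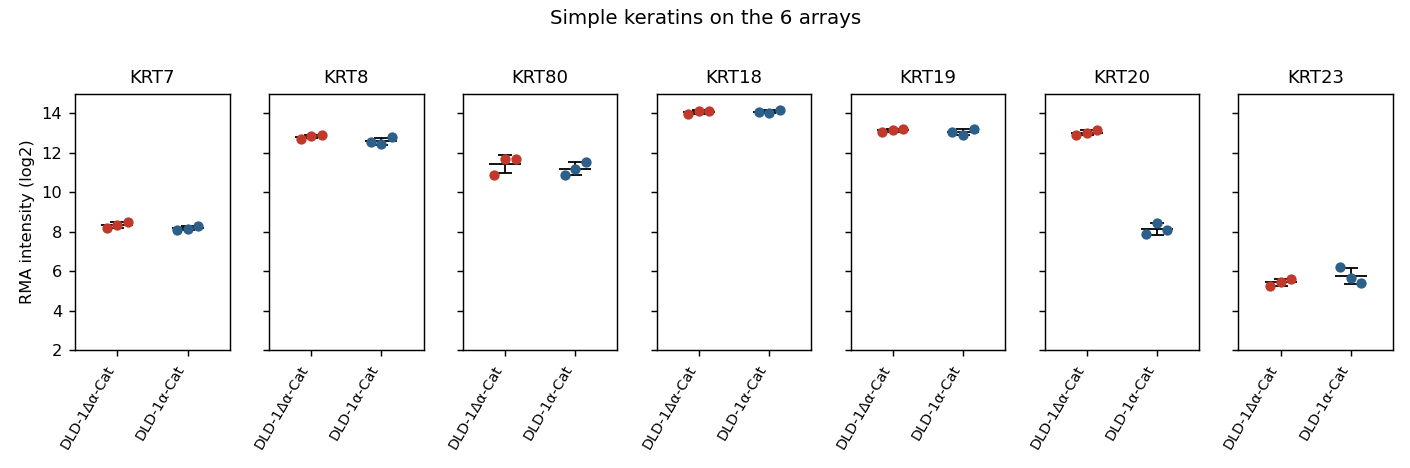
Log2 RMA intensity (vertical axis) of the 7 simple keratins on each of the 6 arrays, with DLD-1Δα-Cat in red and DLD-1α-Cat in blue and type II keratins in the 3 panels on the left. Points are single arrays, and the bars show the mean with the SD (n = 3). KRT20 lies near 13 in DLD-1Δα-Cat and near 8 in DLD-1α-Cat, while the points of the other 6 genes overlap between the subclones.

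The sequence just before an annotated transcription start was available for KRT20 and for KRT8, its type II partner. It is shown for both because the one gene differed widely and the other little. A single annotated start was read per gene, and whether it is the start used in these cells was not tested. The letters are RefSeq's (build GRCh38.p14), each gene lies on the minus strand, and the 250 bases are written 5′ to 3′ in the direction of transcription, at chr17:40885243-40885492 for KRT20 and at chr12:52926470-52926719 for KRT8. Capitals mark matches, on either strand, to 7 short motifs of factors linked to keratin genes or to the start site.
KRT20: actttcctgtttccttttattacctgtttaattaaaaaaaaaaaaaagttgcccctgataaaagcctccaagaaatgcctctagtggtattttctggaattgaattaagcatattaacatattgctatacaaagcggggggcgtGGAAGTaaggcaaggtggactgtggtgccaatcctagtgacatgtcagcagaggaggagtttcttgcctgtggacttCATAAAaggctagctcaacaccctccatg
KRT8: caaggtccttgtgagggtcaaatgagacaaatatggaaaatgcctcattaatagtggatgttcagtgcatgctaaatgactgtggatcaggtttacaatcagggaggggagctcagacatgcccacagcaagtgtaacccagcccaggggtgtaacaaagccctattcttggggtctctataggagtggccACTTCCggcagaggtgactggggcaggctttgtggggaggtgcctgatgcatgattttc
In KRT20 the ETS motif GGAAGT began at position -106, counted back from the start, and the CDX core motif TTTATG was read on the opposite strand at -29. In KRT8 the ETS motif was on the opposite strand at -59. Windows of the same length from 35116 promoters held GGAAGT in 19.5% and TTTATG in 9.64% of cases. Neither gene's window held the TATA box TATAAA (10.7% of promoters), the GC box GGGCGG (42.6%), the AP-1 motif TGANTCA (6.57%), the GATA motif AGATAA (9.17%) or the E-box CACCTG of ZEB and Snail factors (17.5%). Only these letter strings were searched, so variants of a motif were not counted and may be present. No 2 of the matches overlapped. The G and C content was 41.2% in KRT20 and 50.4% in KRT8, against a median of 58.0% over all promoters.

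The type II members differed by 0.24 or less. KRT8, the main type II keratin of simple epithelia, was at 12.73, 12.86 and 12.90 in DLD-1Δα-Cat, against 12.53, 12.43 and 12.79 in DLD-1α-Cat. The arrays overlapped, and the difference was 0.24 (SE 0.123). KRT7, a keratin of ducts and glands that most colon epithelium lacks, was at 8.17, 8.37 and 8.51 in DLD-1Δα-Cat, against 8.11, 8.13 and 8.30 in DLD-1α-Cat on its brightest probe set. Here too the arrays overlapped, with a difference of 0.17 (SE 0.119). KRT80, a type II keratin found near cell margins in many epithelia, was at 10.89, 11.67 and 11.71 in DLD-1Δα-Cat, against 10.90, 11.17 and 11.56 in DLD-1α-Cat. Replicate 1 was the lowest array of both subclones for KRT80, which had the largest SE of the 7 genes (difference 0.21, SE 0.255).

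Among the type I members other than KRT20 the differences were of similar size. KRT18, the usual partner of keratin 8, was at 13.96, 14.11 and 14.12 in DLD-1Δα-Cat, against 14.09, 14.03 and 14.16 in DLD-1α-Cat, and the means differed by -0.03 (SE 0.0976). The arrays overlapped throughout, and all 6 lay between 13.96 and 14.16. KRT19, the smallest keratin, which lacks most of the tail domain, was at 13.07, 13.16 and 13.21 in DLD-1Δα-Cat, against 13.07, 12.90 and 13.19 in DLD-1α-Cat. Its difference was 0.09 (SE 0.108), and replicate 2 of DLD-1α-Cat was the lowest array. KRT23, a type I keratin that has been found in some colon tumours, was at 5.27, 5.44 and 5.60 in DLD-1Δα-Cat, against 6.22, 5.68 and 5.40 in DLD-1α-Cat. Except for 6.22, these values lay below the median of all probe sets, 6.12, and no detection calls were used to tell signal from background. The groups overlapped (difference -0.33, SE 0.208). For KRT7, KRT8, KRT18 and KRT19 the means of the subclones were thus at most 0.24 apart.

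KRT19 and KRT7 were each read by several probe sets. The second probe set of KRT19 differed by 0.12 (SE 0.12), against 0.09 for the first. KRT7 had 4 probe sets, with differences of 0.17, 0.06, -0.08 and -0.27, and the probe sets behind the negative values lay below the median of all probe sets on every array. The mean of the 4 turned the sign of KRT7 (-0.03). All 10 probe sets other than that of KRT20 overlapped between the subclones, and their differences lay between -0.33 and 0.24. Of the 11 probe sets, 1 passed in a fit over all probe sets, against 2.45% of the array, and 1 did not overlap, against 22.1%. The probe sets of KRT8 and KRT18 carry the suffix that Affymetrix gives to sets whose probes can bind other transcripts too. Both genes have many processed pseudogenes, so their values may include related transcripts.

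On the DLD-1Δα-Cat arrays all 7 genes had their lowest value on replicate 1 and their highest on replicate 3. Over all genes, 37.1% were lowest on replicate 1 and 36.4% highest on replicate 3. The share of all genes with both was not computed, so nothing is read from the shared order. Its steps were small, with a span as low as 0.14 for KRT19. On the DLD-1α-Cat arrays 5 of the 7 were highest on replicate 3 (33.0% of all genes), the exceptions being KRT20, highest on replicate 2, and KRT23, highest on replicate 1. Their lowest DLD-1α-Cat array was not a common one: it was replicate 1 for 3 genes, replicate 2 for 3 and replicate 3 for 1. The span between the lowest and the highest array was small for KRT18 (0.16 for DLD-1Δα-Cat and 0.13 for DLD-1α-Cat) and wide for KRT80 (0.82 for DLD-1Δα-Cat and 0.65 for DLD-1α-Cat). Set pairwise by replicate number, KRT20 differed by 5.03, 4.56 and 5.08. KRT8 differed by 0.19, 0.43 and 0.10 and KRT7, on its brightest probe set, by 0.06, 0.25 and 0.21. KRT18 differed by -0.14, 0.08 and -0.04, KRT19 by 0.00, 0.25 and 0.03, KRT80 by -0.02, 0.49 and 0.15, and KRT23 by -0.95, -0.24 and 0.20.

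The other keratins addressed whether the difference of KRT20 extended to the rest of the family. Of 48 further keratin genes listed, 37 had a probe set of their own, and 29 of these had a mean below the median of all probe sets. In the list of other type I keratins 1 of 20 rose and 0 fell, with a median difference of -0.107, against -0.030 over all genes. In the list of other type II keratins 0 of 17 passed by limma, and the median was -0.079. Across all genes 3.84% rose and 1.67% fell. The brightest of the type II list, KRT3, a keratin of the cornea, differed by -0.14 (adjusted p = 0.717). With the replicate number as a block 1 type II gene passed, the hair follicle keratin KRT71 (-0.57, adjusted p = 0.0255, against 0.383 without the block), which was named after its value was seen.

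KRT12 was the type I gene that rose. It encodes a keratin of the corneal epithelium, and it was at 5.80, 5.87 and 5.66 in DLD-1Δα-Cat, against 3.84, 3.58 and 4.44 in DLD-1α-Cat. The groups did not overlap, and the difference was 1.82 (SE 0.211, limma adjusted p = 0.00442), with a pass in all 6 runs that left out 1 array. It did not pass without moderation of the variances (adjusted p = 0.0937). All of its values lay below the median of all probe sets, so KRT12 was dim in both subclones.

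**Figure D2:**
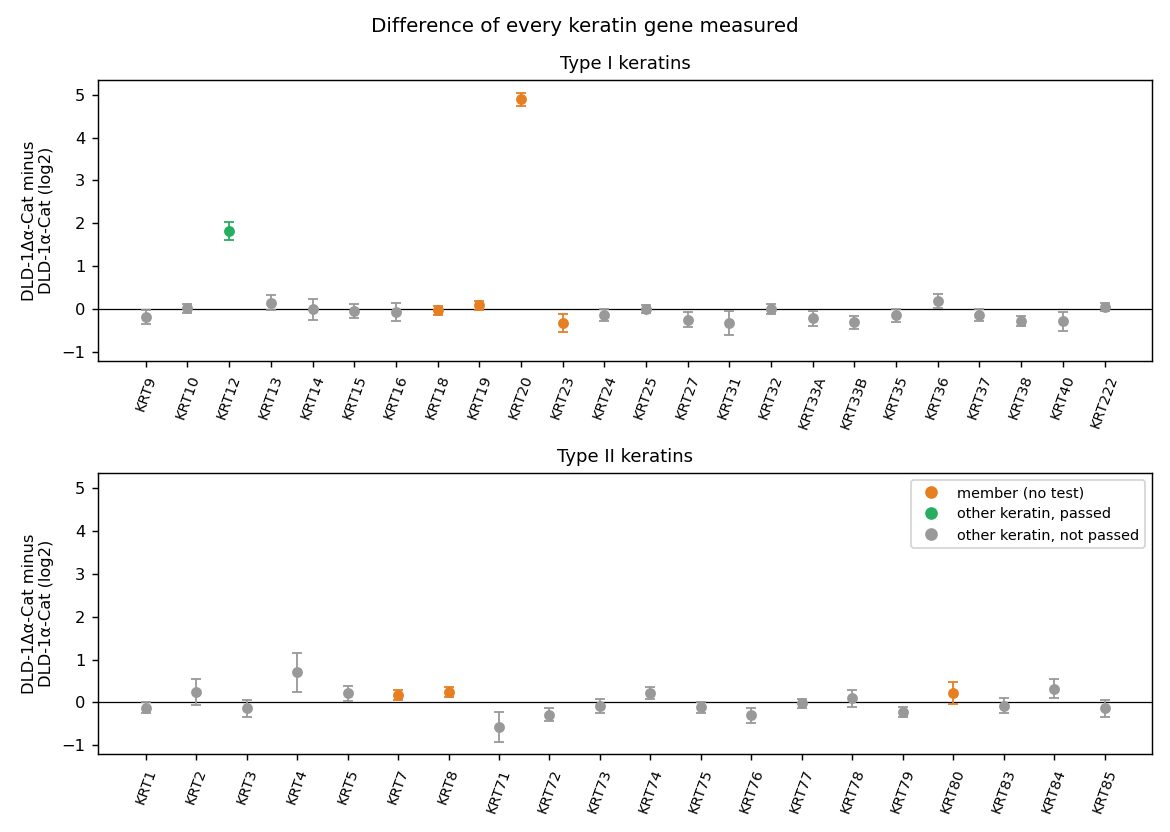
Difference between the subclones (DLD-1Δα-Cat minus DLD-1α-Cat, log2, vertical axis) for the 44 keratin genes measured, type I above and type II below, each with its SE. Orange points are the 7 members, given without a test, and the green point is KRT12 at 1.82, while the remaining 36 keratins (grey) lie between -0.57 and 0.70.

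KRT12 is also the gene next to KRT20. Both lie in the type I keratin cluster of chromosome 17, where RefSeq places KRT12 directly on one side of KRT20 and KRT23 directly on the other. Of the 10 tested genes on each side of KRT20, 19 are not members. Of these 1 rose (KRT12) and 1 fell, where 5.52% of all genes passed in either direction. The gene that fell was TNS4, a tensin of focal adhesions, at the far edge of the stretch (-0.67, limma adjusted p = 0.0334), and it passed in 1 of 6 runs that left out 1 array. The 20 neighbours had a median difference of -0.011 and a range of -0.67 to 1.82. This stretch of genes was chosen after the values had been seen. KRT10, KRT24, KRT25, KRT27 and KRT222, on the same side as KRT12, differed by 0.02, -0.14, 0.00, -0.25 and 0.05, and none of them passed.

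**Figure D3:**
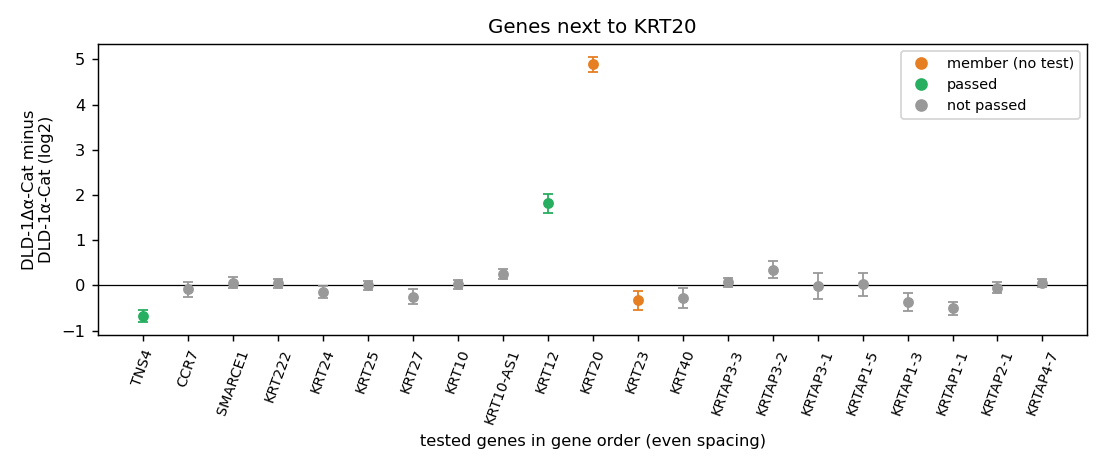
Difference between the subclones (DLD-1Δα-Cat minus DLD-1α-Cat, log2, vertical axis) with its SE for KRT20 and its 10 nearest tested neighbours per side, in gene order with even spacing. KRT20 (4.89) and its neighbour KRT12 (1.82) stand above the rest, the neighbour on the other side, KRT23, lies at -0.33, and TNS4 lies at -0.67.

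Other intermediate filament proteins were examined because cells that lose epithelial traits often change from keratins to vimentin. In this list 1 of 17 rose and 1 fell (median difference -0.086), where 3.84% of all genes rose and 1.67% fell. Peripherin (PRPH), a filament protein of peripheral neurons, was at 8.67, 8.83 and 8.51 in DLD-1Δα-Cat, against 6.71, 7.20 and 7.62 in DLD-1α-Cat. It rose by 1.49 (SE 0.222, limma adjusted p = 0.0115) and passed in all 6 runs that left out 1 array. Synemin (SYNM), a large filament protein that assembles with vimentin or desmin, was at 6.49, 6.79 and 6.88 in DLD-1Δα-Cat, against 7.76, 8.78 and 8.23 in DLD-1α-Cat. It fell by 1.53 (log2; adjusted p = 0.0163) and passed in 3 of 6 such runs, not without replicate 1 or 2 of DLD-1Δα-Cat or replicate 3 of DLD-1α-Cat (adjusted p up to 0.0761). Vimentin (VIM), named after its value was seen, differed by 0.43 and did not pass (adjusted p = 0.0807).

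Proteins that anchor or modify keratin filaments were read against the 5.52% of all genes that passed. Of 31 linkers and binding partners 1 rose and 1 fell (median difference -0.023), and of 20 kinases, proteases and other modifiers 2 rose and 0 fell (median 0.027). Plakophilin 2 (PKP2), which helps to tie keratins to desmosomes, averaged 10.41 ± 0.0722 on the DLD-1Δα-Cat arrays and 10.91 ± 0.0882 on the DLD-1α-Cat arrays (SD, n = 3 each), and it fell by 0.50 (log2; limma adjusted p = 0.031). Its second probe set was at -0.21 and did not pass, and with the mean of both it was at -0.36 (adjusted p = 0.069). Pinin (PNN), a nuclear and desmosome-associated protein that can bind keratins, rose by 0.60 on its brightest probe set (adjusted p = 0.0125). Its other 4 probe sets had differences of -0.24 to -0.38 and did not pass, and with the mean of its probe sets it lay at -0.12. MAPKAPK2, the p38 pathway kinase that phosphorylates keratins, rose by 0.62 on its brightest probe set (adjusted p = 0.0297). Its other probe sets, at 0.32 and -0.12, did not pass, and the mean of its probe sets gave 0.28 (adjusted p = 0.196). The cross-linking enzyme transglutaminase 3 (TGM3) rose by 0.67 (adjusted p = 0.0443). PKP2, MAPKAPK2 and TGM3 each passed in 1 of 6 leave-one-out runs and PNN in 3, with adjusted p up to 0.134, 0.115, 0.157 and 0.0635. In the limma fit over all probe sets the brightest probe sets of PKP2, MAPKAPK2 and TGM3 did not pass either (adjusted p = 0.0612, 0.0549 and 0.0754). That of PNN did (adjusted p = 0.0281). The cytolinkers desmoplakin (DSP) and plectin (PLEC), named after their values were seen, differed by -0.02 and 0.32 and did not pass.

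Of 33 measured transcription factors linked to simple keratin genes, 3 rose and 1 fell, where 5.52% of all genes passed in either direction. Their median difference was 0.115, and 15 had arrays that did not overlap, as did 27.2% of all genes. This list too was chosen with earlier results of these data known, so its counts are a description. ETS1, a factor of the ETS family, was at 9.51, 10.03 and 10.02 in DLD-1Δα-Cat, against 6.10, 6.29 and 6.71 in DLD-1α-Cat. It rose by 3.49 (SE 0.202, limma adjusted p = 0.000224), or 11.2-fold, a further probe set gave 3.03, and another, at 6.15 for DLD-1Δα-Cat and 6.18 for DLD-1α-Cat, differed by -0.03. CDX1, an intestinal homeobox factor that has been reported to activate KRT20, was at 6.25, 6.39 and 6.38 in DLD-1Δα-Cat, against 7.43, 7.39 and 7.48 in DLD-1α-Cat. It fell by 1.09 on the log2 scale (SE 0.093, adjusted p = 0.00117), whereas KRT20 was higher in DLD-1Δα-Cat. CDX1 is read by 1 probe set, and its link to KRT20 was not tested. Its relative CDX2, named after its value was seen, differed by 0.11 (adjusted p = 0.677). ETS1 and CDX1 passed in all 6 runs that left out 1 array.

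ZEB1, a repressor of epithelial genes, rose by 1.96 (limma adjusted p = 0.0253) on 1 of its 4 probe sets, and OVOL1, which opposes it, by 1.17 (adjusted p = 0.0181) on 1 of 2. With the mean of its probe sets ZEB1 was at 0.43 and did not pass (adjusted p = 0.0802), and it is among the dim genes that a filter removes. ZEB1 passed in 2 and OVOL1 in 3 of the 6 leave-one-out runs, with adjusted p up to 0.0942 and 0.0753. With the replicate number as a block 8 factors passed in place of 4. The further ones were KLF4 (0.61, adjusted p = 0.0312), the epithelial ETS factor ELF3 (0.64, adjusted p = 0.0368), FOSL2 (0.50, adjusted p = 0.0326) and FOSL1, an AP-1 subunit, at -1.13 (adjusted p = 0.00774). Without the block their adjusted p lay between 0.0593 and 0.192, and they were named after their values were seen.

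**Figure D4:**
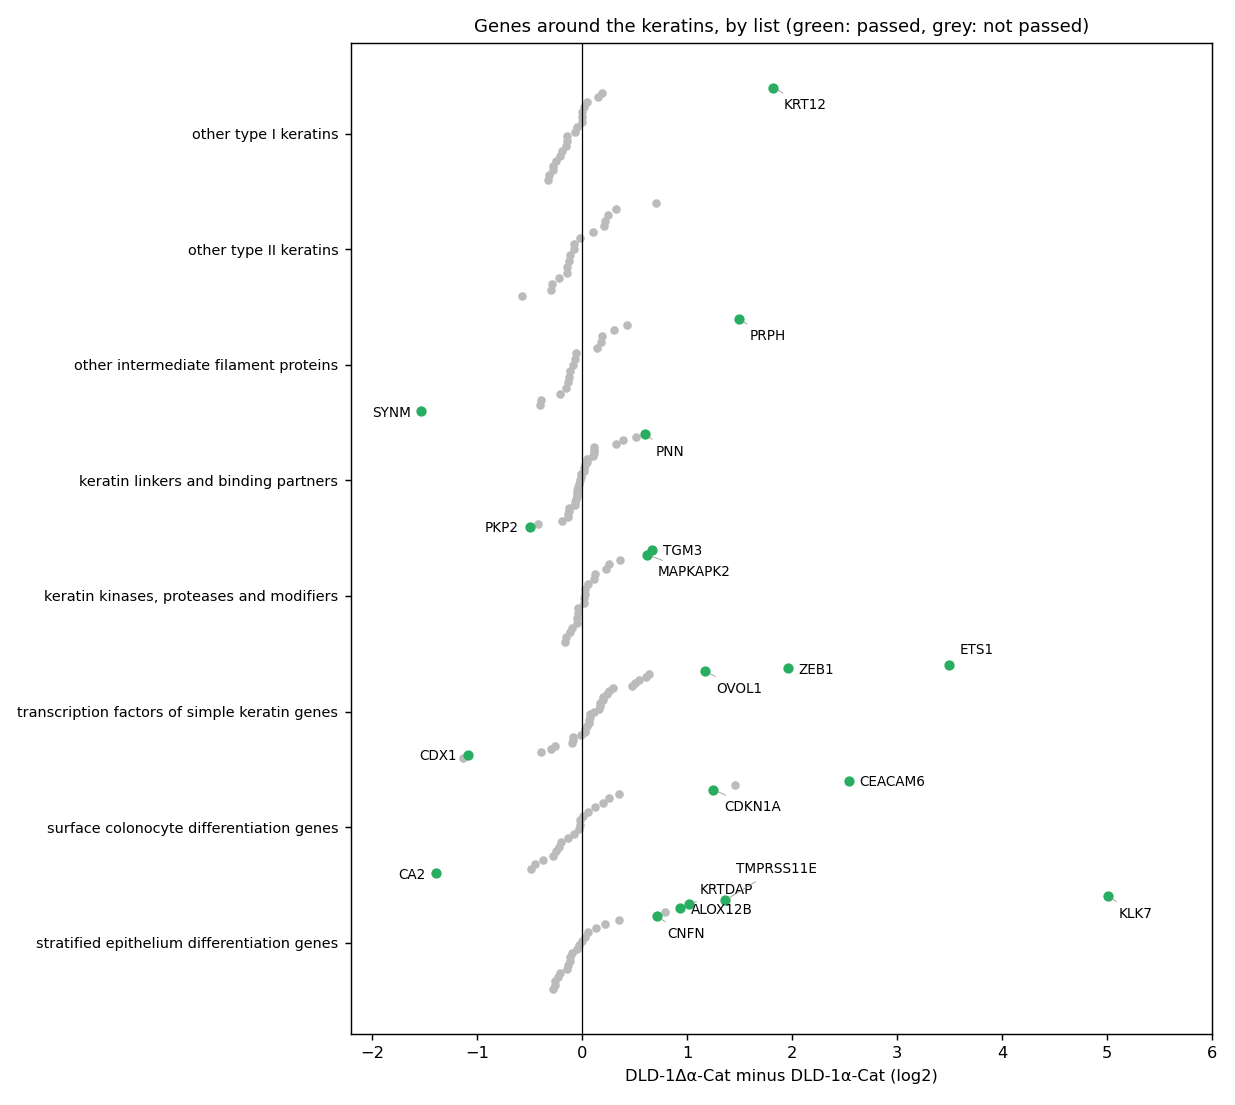
Difference between the subclones (DLD-1Δα-Cat minus DLD-1α-Cat, log2, horizontal axis) for each measured gene of the 8 lists around the keratins. Named green points passed an adjusted p of 0.05 and grey points did not. KLK7 at 5.01 and ETS1 at 3.49 lie farthest to the right, and most points of every list lie near 0.

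Genes that share the surface colonocyte with keratin 20 moved in both directions. In that list 2 of 22 rose and 1 fell, with a median difference of -0.026, where 3.84% of all genes rose and 1.67% fell. CEACAM6, an adhesion molecule of surface cells, was at 7.66, 9.06 and 8.58 in DLD-1Δα-Cat, against 5.39, 6.36 and 5.93 in DLD-1α-Cat (2.54, limma adjusted p = 0.0113). Without replicate 3 of DLD-1α-Cat its adjusted p was 0.0607. CDKN1A, the cell cycle inhibitor p21, rose by 1.25 (adjusted p = 0.00638), and carbonic anhydrase 2 (CA2) fell by 1.39 (log2; adjusted p = 0.00159). CDKN1A and CA2 passed in all 6 runs that left out 1 array. With the replicate number as a block 4 genes of the list passed, the further one being CEACAM5, a relative of CEACAM6 (1.46, adjusted p = 0.0315, against 0.145 without the block), which was named after its value was seen.

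Genes of stratified epithelium, the tissue of the epidermal keratins, were listed as the other form of epithelial differentiation. Here 5 of 24 rose and 0 fell, with a median difference of -0.017. Over all genes 3.84% rose and 1.67% fell. The list was chosen with earlier results of these data known, so its count is a description. KLK7, a protease that cleaves cell contacts in the outer skin, was at 11.21, 11.05 and 11.38 in DLD-1Δα-Cat, against 6.08, 6.08 and 6.45 in DLD-1α-Cat (5.01, limma adjusted p = 6.8e-06). The membrane protease TMPRSS11E rose by 1.36 (adjusted p = 0.00423), and both passed in all 6 runs that left out 1 array. Without moderation of the variances KLK7 passed (adjusted p = 0.0118) and TMPRSS11E did not (adjusted p = 0.0868). KRTDAP, a keratinocyte differentiation protein, rose by 1.02 (adjusted p = 0.0417), the lipoxygenase ALOX12B by 0.93 (adjusted p = 0.0154) and cornifelin (CNFN) by 0.71 (adjusted p = 0.018). These 3 passed in 1, 4 and 2 of the 6 runs, and with the replicate number as a block KRTDAP was at adjusted p = 0.0806. In the limma fit over all probe sets KRTDAP did not pass either (adjusted p = 0.0672). All values of TMPRSS11E and KRTDAP lay below the median of all probe sets, 6.12, and a filter on dim probe sets removes both. Involucrin (IVL), named after its value was seen, differed by 0.35 and did not pass (adjusted p = 0.521).

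The genes whose pattern over the 6 arrays was nearest to that of KRT20 were A2M, KLK7, ELAVL2, RTN1 and ZNF432. Nearness was the distance between log2 values centred on each gene's own mean, and it was 0.5 for A2M, 0.601 for KLK7, 0.666 for ELAVL2, 0.672 for RTN1 and 0.743 for ZNF432. A difference of similar size to that of KRT20 is thus fixed by the way these genes were picked, and nothing is read from it. The protease inhibitor A2M was at 9.19, 9.60 and 9.78 in DLD-1Δα-Cat, against 4.62, 4.73 and 4.28 in DLD-1α-Cat. Its second probe set differed by -0.20. Those of KLK7, ELAVL2 and RTN1 differed by 4.01, 1.32 and 2.89, less than the brightest probe set of each gene, and ZNF432 has 1 probe set. The RNA-binding protein ELAVL2 averaged 8.85 ± 0.186 on the DLD-1Δα-Cat arrays and 4.07 ± 0.341 on the DLD-1α-Cat arrays, and the reticulon RTN1 7.97 ± 0.346 on the DLD-1Δα-Cat arrays and 3.56 ± 0.252 on the DLD-1α-Cat arrays (SD, n = 3 each). The zinc finger protein ZNF432 averaged 8.06 ± 0.277 on the DLD-1Δα-Cat arrays and 3.51 ± 0.131 on the DLD-1α-Cat arrays (SD, n = 3 each). In A2M, ELAVL2, RTN1 and ZNF432 the DLD-1α-Cat arrays lay below the median of all probe sets, whereas those of KRT20 lay above it. By correlation over the same 6 arrays, RTN1 alone of these genes was also among the 5 most similar (rank 3, r = 0.998). A2M, KLK7, ELAVL2 and ZNF432 were at ranks 7, 16, 25 and 20 (r = 0.9968, 0.9954, 0.9939 and 0.9943).

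**Figure D5:**
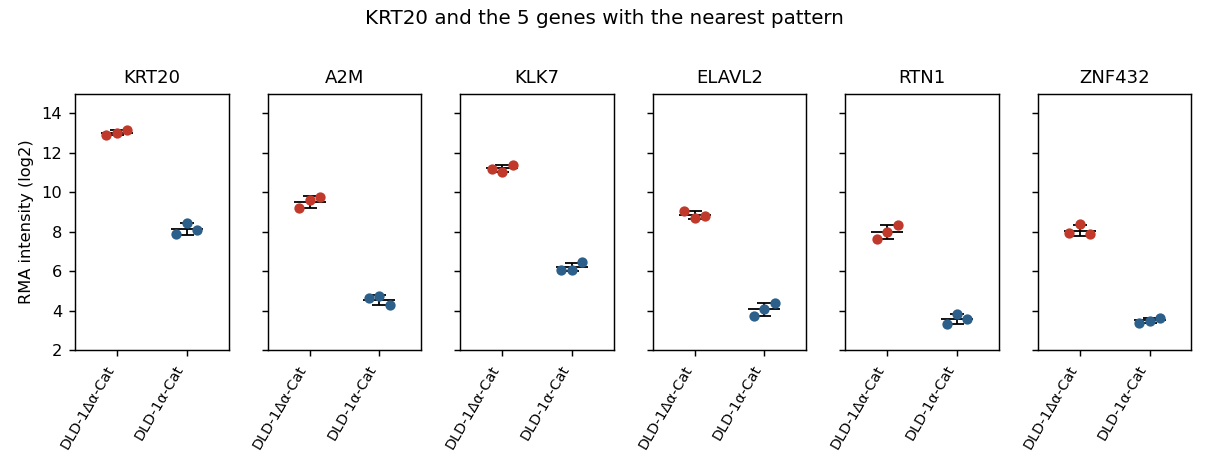
Log2 RMA intensity (vertical axis) of KRT20 and the 5 genes with the nearest pattern, DLD-1Δα-Cat in red and DLD-1α-Cat in blue. Points are single arrays, and bars show the mean with the SD (n = 3). In all 6 panels every DLD-1Δα-Cat array lies above every DLD-1α-Cat array, with mean differences from 4.41 (RTN1) to 5.01 (KLK7). The 5 genes were picked for nearness to KRT20, so this likeness follows from the choice.

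Markers of colon epithelium were present on every array, with 7 of 8 (EPCAM, CDH1, VIL1, CDX2, LGALS4, CLDN7 and TSPAN8) above the median of all probe sets throughout. Their mean per array was 10.50 to 10.83 on the DLD-1Δα-Cat arrays and 10.71 to 10.79 on the DLD-1α-Cat arrays. Of the markers of other cell types, 1 of 7 for fibroblasts (COL1A1), 1 of 5 for leukocytes (CD14), 0 of 4 for endothelium and 1 of 6 for stratified or basal epithelium (KRT10) lay above that median on all arrays. Among all these markers CD14 and LYZ, both of the leukocyte list, passed between the subclones. CD14 averaged 6.57 ± 0.19 on the DLD-1Δα-Cat arrays and 7.74 ± 0.188 on the DLD-1α-Cat arrays (limma adjusted p = 0.00517), and LYZ 5.56 ± 0.187 on the DLD-1Δα-Cat arrays and 4.02 ± 0.528 on the DLD-1α-Cat arrays (SD, n = 3 each; limma adjusted p = 0.0167). A sign of RNA quality differed between the subclones: for the control probe sets of β-actin, the 3′ set exceeded the 5′ set by 5.20 ± 0.159 on the DLD-1Δα-Cat arrays and 4.69 ± 0.291 on the DLD-1α-Cat arrays (log2, SD, n = 3 each). On single arrays this 3′ excess lay between 4.36 and 5.38, so it was large in both subclones. Its part in these results was not tested.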

How the data were processed

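Total RNA was measured on 6 arrays, 3 per subclone, and groups were taken from the sample titles. Per the submitters' processing notes, the authors made the deposited log2 values with Affymetrix Expression Console and RMA, of versions not given in the sources used here. Because that summary equalises the distribution of all arrays (medians 6.12 to 6.15), it hides any shift of the whole transcriptome. The number of arrays limits the precision. No detection calls were used here.

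The 62 control probe sets were set aside. Of the others, 41091 had 1 gene symbol in the platform annotation, 1801 had several and 11721 were unnamed here, and 41037 matched a RefSeq gene (GRCh38.p14) by gene ID. The brightest probe set stood for each of 19775 genes, and dim ones were kept. The subclones were compared by limma 3.58.1 under R 4.3.3 (lmFit, then eBayes, two-sided, Benjamini-Hochberg over all genes, threshold 0.05), and every probe set was fitted in the same way. The members and the 8 lists were chosen with earlier results of these data known, so the counts of passing genes in them are a description. Named were the members, CTNNA1, up to 5 rising and 5 falling genes per list (where none passed, its brightest gene) and the 5 genes nearest to KRT20.

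Same-numbered arrays deviated together from their group means (correlation over genes 0.225, 0.376 and 0.122), each above the limit of 0.1 set for pairs, so the pairing comes from the data and not from a stated design. The main fits are unpaired, and blocking on the replicate number was an alternative. On data simulated for these 19775 genes, 20%, 64%, 94% and 100% of changes of 0.5, 1, 2 and 4 on the log2 scale were recovered, and 10 of 149 calls were false. Promoters were matched by symbol, which found 2 of the 7 members, and the motifs were chosen with the sequences in view.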

Additional observations from a re-analysis of the deposited data

How the results depend on the processing

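The 14 alternatives were quantile normalization, centring on the array median, a filter on dim probe sets, averaging each gene's probe sets, a variance trend with robust estimation, no moderation, array weights, the replicate number as a block, and leaving out each of the 6 arrays. KRT20 passed under all 14, and the other members passed under none. As the comparison chose the members, nothing is read from these passes. KRT7 moved from its main value with the mean of its probe sets (-0.03), and KRT23 has no value without dim probe sets. Without moderation the counts of passing genes were 0 for other type I keratins, 0 for other intermediate filament proteins, 1 for linkers, 0 for modifiers, 2 for transcription factors, 0 for surface colonocyte genes, 1 for stratified epithelium genes and 0 for the genes next to KRT20. Without dim probe sets they were 0 for other type I keratins, 3 for stratified epithelium genes and 1 for the genes next to KRT20, where fewer genes were tested. With the mean of probe sets they were 0 for linkers and 1 for modifiers, and PNN turned to -0.12 (adjusted p = 0.53). ZEB1 was lost under both of the last settings, though the count of transcription factors stayed at 4. Quantile normalization gave 1 modifier, and the variance trend 8 transcription factors. With the replicate number as a block 1 other type II keratin, 8 transcription factors and 4 surface colonocyte genes passed, KRTDAP was lost, and no other named gene changed its call. When 1 array was left out, counts ranged from 1 to 2 for other intermediate filament proteins, 0 to 2 for linkers, 0 to 1 for modifiers, 2 to 5 for transcription factors, 2 to 4 for stratified epithelium genes and 1 to 2 for the genes next to KRT20. The causes of these shifts were not tested. Correlation in place of distance kept 1 of the 5 genes nearest to KRT20, and reading motifs on the gene's strand only left 1 motif in KRT20 in place of 2. Of the values of single genes, 227 kept their call or moved little under the alternatives other than leaving out an array and 20 no longer passed, and 152 and 40 did so when 1 array was left out.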
